A study of Mus musculus with 3 samples.

Results

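The genes of the cytoplasmic ribosomal proteins were examined in RNA bound to chromatin of mouse bone-marrow-derived macrophages. They were taken by symbol, as the genes with a protein-coding transcript named Rpl or Rps with a number, Rplp0 to Rplp2, or Rpsa. The rule found 80 genes of 55536 annotated gene entries. Of these, 46 encode proteins of the large subunit, 31 proteins of the small subunit and 3 proteins of the stalk of the large subunit.

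The series held 1 group of 3 biological replicates: macrophages of C57BL/6J mice, stimulated with lipid A at 100 ng/ml for 90 min, from which the chromatin fraction was taken and depleted of ribosomal RNA. Lipid A, the part of bacterial lipopolysaccharide that sits in the outer membrane, activates Toll-like receptor 4. Replicates 1, 2 and 3 started from 1 µg, 250 ng and 500 ng of RNA, so the effect of the starting amount is confounded with the replicate, and the 2 cannot be told apart. Other fractions and unstimulated cells were not analysed here, and all values are levels after stimulation, not changes. All 3 libraries carry the same donor label, so the p-values measure the spread between these libraries, which may be technical. In bulk RNA, fewer cells of a type and less RNA per cell cannot be told apart.

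Each ribosome carries a set of proteins, nearly all in 1 copy, and their genes are among the most strongly transcribed in growing cells. Their mRNAs begin with a 5′ terminal oligopyrimidine tract, a run of C and U through which mTOR signalling and the RNA-binding protein Larp1 control translation. The genes are short, have several introns, host many of the small nucleolar RNAs (snoRNAs) that guide modification of ribosomal RNA, and have left many processed pseudogenes in mammalian genomes. In macrophages, translation of these mRNAs responds to growth and stimulation signals.

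The deposited expected counts summed to 11277198, 24965749 and 19794886 in replicates 1, 2 and 3. A noncoding locus (Gm26917, CT010467.1 and Gm42418) took 9.3% to 50.8% of them, lowest in replicate 1. TPM, the length-scaled share of a library in parts of 1000000, therefore moves with that locus, and levels were set within each library against the median of 10520 expressed nuclear protein-coding genes. Of 15 macrophage markers, 12 lay more than 2-fold above that median gene and 0 below it. Of 48 markers of 7 other blood and stromal cell types, 13 passed the count minimum and 1, the granulocyte receptor gene Csf3r, lay above.

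The sequences shown first are borders between exons and introns that annotated retained-intron transcripts enter. A retained-intron transcript is one that GENCODE M21 types so, because it holds sequence that the coding transcripts of the gene splice out. Among the 80 genes, 62 have at least 1 such transcript, and there are 172 in all. Of these 172 transcripts, 125 run from an exon across a splice donor of the gene's leading coding transcript into the intron, 83 keep an intron whole, 59 start inside an intron and 63 end inside one. All 125 different introns entered in this way begin with GT. The 6 borders shown belong to the genes with the highest ratio of retained-intron to protein-coding transcripts. Each comes from the most abundant of that gene's retained-intron transcripts that cross a donor in this way. The transcripts shown for Rpl10a and Rpl3 keep that intron whole, and those for Rps18, Rps26, Rpl36a and Rpl5 end inside it. They hold only part of their gene's retained-intron TPM: Rpl5-202 averaged 7.20 of 36.4 TPM and Rpl36a-204 averaged 1.40 of 4.18 TPM. Lower case marks the last 10 exon bases and capitals mark the first 30 intron bases, from the M21 transcript sequences on mm10. The Rps18 border is in intron 2 at chr17:33955048-33955087 and the Rpl10a border in intron 3 at chr17:28329038-28329077. The Rpl3 border is in intron 3 at chr15:80081585-80081624 and the Rps26 border in intron 2 at chr10:128626033-128626072. The Rpl36a border is in intron 3 at chrX:134586569-134586608 and the Rpl5 border in intron 5 at chr5:107903859-107903898. Rps18, Rpl3 and Rps26 lie on the minus strand and Rpl10a, Rpl36a and Rpl5 on the plus strand.
Rps18-208: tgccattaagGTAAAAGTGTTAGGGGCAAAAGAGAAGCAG
Rpl10a-206: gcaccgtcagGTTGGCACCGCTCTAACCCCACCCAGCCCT
Rpl3-204: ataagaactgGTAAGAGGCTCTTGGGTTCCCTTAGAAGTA
Rps26-203: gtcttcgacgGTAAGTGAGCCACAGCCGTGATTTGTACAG
Rpl36a-204: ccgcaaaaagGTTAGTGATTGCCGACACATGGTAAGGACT
Rpl5-202: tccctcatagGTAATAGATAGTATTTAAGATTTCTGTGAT

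Some sequence features that the choice by symbol did not use were more frequent in start regions of the genes than in all start regions. RefSeq start windows (GRCm38.p6, 250 bases before to 50 after the start) were matched for 60 of the 80 genes, in 72 windows, and compared with all 32851 windows of the table. A run of at least 8 C or T within 25 bases of either side of the start, on the gene's strand, was present in 45.8% of the 72 windows and in 19.7% of all windows. The letters CCGGAA, the core that ETS factors such as Gabpa bind, were present on either strand in 47.2% of the ribosomal protein windows and in 14.9% of all windows. GCCATNTT, the core bound by Yy1, was present in 20.8% and 6.05%, CTCTTTC in 27.8% and 8.16%, and the GC box GGGCGG in 58.3% and 35.7%. TATAAA went the other way, with 8.33% of ribosomal protein windows and 13.6% of all windows. Matches to CTCTTTC can overlap the pyrimidine run. These shares describe letters only. The 5 windows below, of 25 bases on either side of the start, are those of the most abundant members that had such a run, which is in capitals. In Rpl5, Rpl10a and Rps12 the run does not include the listed start, so it need not be the terminal oligopyrimidine tract. They lie at chr7:3704016-3704065 (Rps9, plus strand), chr5:107900503-107900552 (Rpl5, plus), chr17:28328540-28328589 (Rpl10a, plus), chr17:33955641-33955690 (Rps18, minus) and chr10:23787185-23787234 (Rps12, minus).
Rps9: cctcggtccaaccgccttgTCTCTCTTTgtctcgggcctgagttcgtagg
Rpl5: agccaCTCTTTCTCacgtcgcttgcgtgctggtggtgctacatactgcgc
Rpl10a: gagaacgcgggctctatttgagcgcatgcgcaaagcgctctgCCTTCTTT
Rps18: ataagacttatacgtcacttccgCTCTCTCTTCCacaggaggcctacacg
Rps12: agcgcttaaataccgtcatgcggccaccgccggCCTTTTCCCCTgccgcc

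Ribosomal protein genes lay mostly above the typical expressed gene on chromatin, by a modest factor. Together they took 1263, 1224 and 1354 TPM in replicates 1, 2 and 3, which was 0.54%, 0.826% and 0.71% of the TPM of protein-coding genes. Their counts were 12755, 19232 and 17200, which was only 0.165%, 0.192% and 0.173% of the counts of protein-coding genes. TPM is scaled by length, counts are not, and the levels below rest on TPM. The median effective length of the tested members was 519 bases. The level of a gene is its log2(TPM + 1) minus the same value of the median protein-coding gene in that library, which had 5.5, 3.7 and 4.92 TPM. The pseudocount of 1 understates differences of low genes. The median level of the 76 members with a mean count of at least 10 was 1.43, and that of all 13434 genes tested was −0.21. By library the members' median was 1.16, 1.61 and 1.39. The mean level was above 0 in 73 of the 76 members and ranged from −0.43 to 3.26.

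Of the 76 members, 34 lay more than 2-fold above the median protein-coding gene (limma's treat against a bound of 1 log2 unit, Benjamini-Hochberg adjusted over all genes), which is 44.7%. Among all genes tested 21.3% were called above and 21.3% below. No member was called below. The mean level itself exceeded the bound in 51 members, so not every member past the bound was called. A minimum mean count of 100 in place of 10 left 4 of 54 members above, with a median level of 0.59. With no minimum, 65 of 77 were above. The share of all genes called above under either minimum is not given here, so these counts cannot be set against it. The number of members above therefore depends on the minimum count. A change of minimum alters both the genes that set the median and the members tested, and their parts were not tested.

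**Figure D1:**
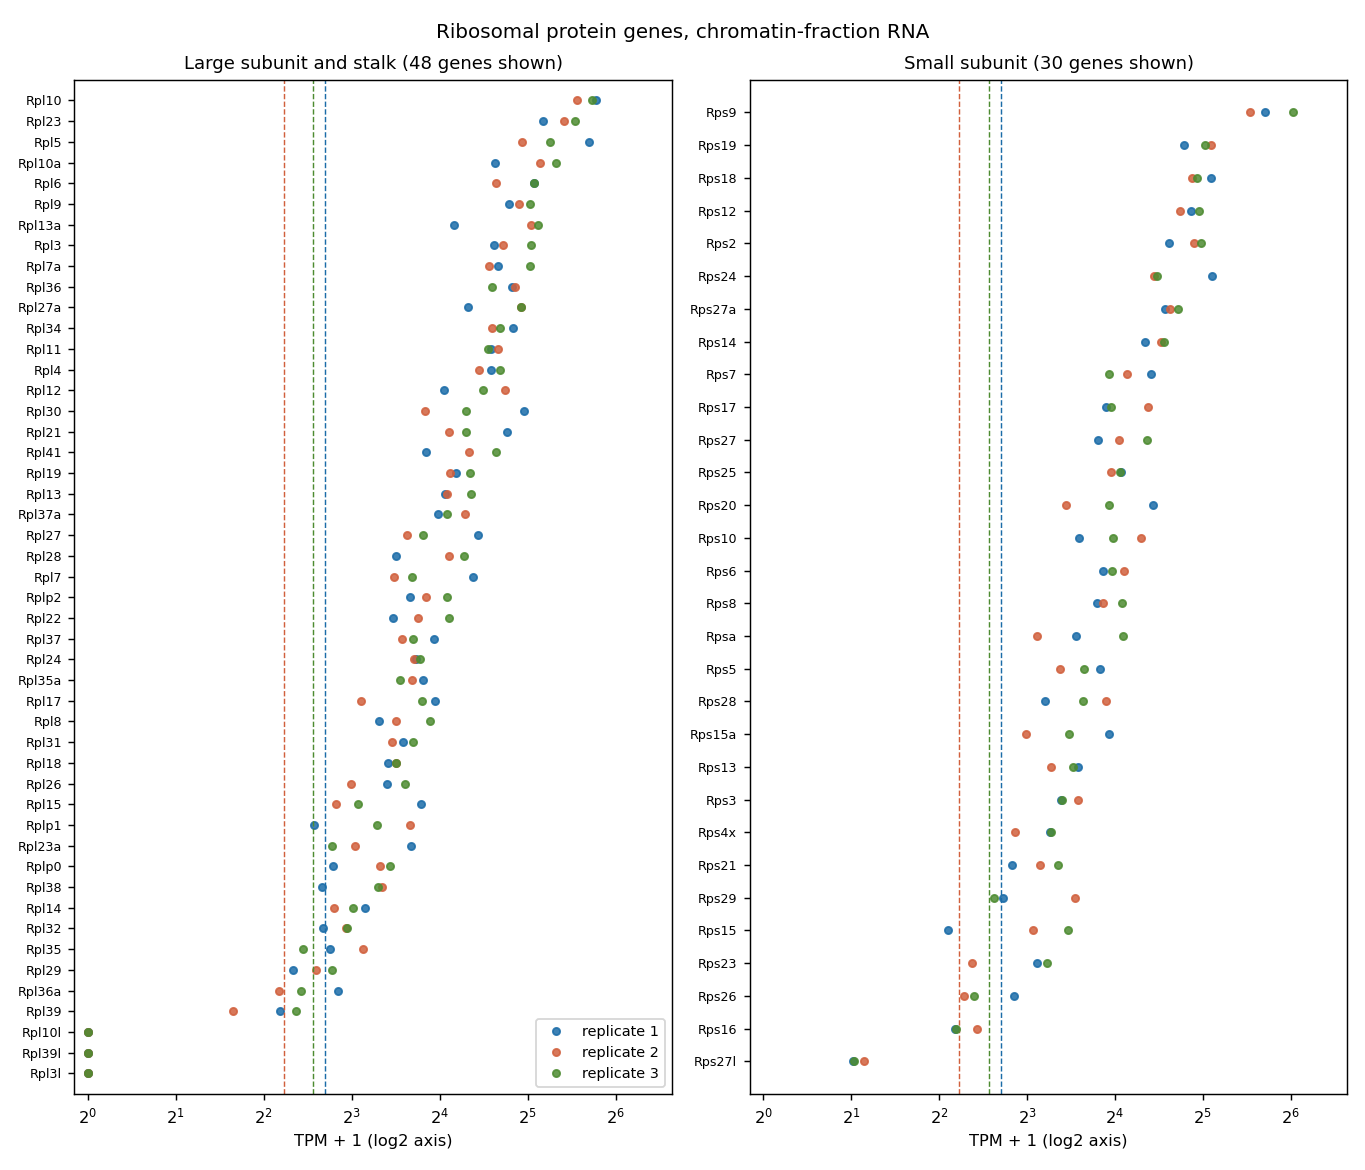
TPM + 1 on a log2 axis for 78 of the 80 ribosomal protein genes, ranked by mean TPM within large-subunit and stalk genes (left) and small-subunit genes (right), with a point for each replicate. Dashed lines mark the median protein-coding gene of the replicate of the same colour (5.5, 3.7 and 4.92 TPM); most members lie to its right, and Rpl10l, Rpl39l and Rpl3l lie at 0 TPM.

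In the alignment-based tables the most abundant member was Rps9, a small-subunit protein that binds ribosomal RNA early in assembly, with 51.05, 45.28 and 64.36 TPM in replicates 1, 2 and 3. Alignment-free, Rpl36 averaged 98.9 TPM and Rps9 62 TPM, so the first place changes with the quantifier. The alignment-based mean level of Rps9 was 3.26 ± 0.23 (SD, n = 3; limma's treat, adjusted p = 7.4e-05), a factor of 9.55 over the median gene. Rpl10, which joins the large subunit late in its maturation, had 53.74, 46.10 and 51.97 TPM and a level of 3.19 ± 0.13 (adjusted p = 6.19e-05). The 3 libraries of Rps9 and of Rpl10 overlapped each other, and each library lay at least 3.00 above the median gene on the log2 scale.

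Rpl23, a protein of the face between the subunits, had 35.15, 41.53 and 45.56 TPM and a level of 2.88 ± 0.36. Rpl5, which with Rpl11 and 5S RNA forms the particle that restrains Mdm2, had 50.93, 29.51 and 37.15 TPM and a level of 2.79 ± 0.18. Rpl5 was highest in replicate 1, whereas Rpl23 was lowest there. Rpl10a, the protein of the L1 stalk, had 23.72, 34.25 and 38.88 TPM and a level of 2.53 ± 0.53, also lowest in replicate 1.

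Rps19, the gene most often mutated in human Diamond-Blackfan anaemia, had 26.64, 33.24 and 31.47 TPM and a level of 2.47 ± 0.39. Rps18, a protein of the head of the small subunit, had 33.10, 28.28 and 29.55 TPM and the same mean level of 2.47, with a smaller SD of 0.15. Rpl6, Rpl9 and Rps12 followed, with mean TPM of 29.8, 29.1 and 28. All 10 of these genes were called above by limma's treat, and from Rpl10a to Rps12 the mean levels lay between 2.35 and 2.53, a span smaller than the SD of Rpl10a.

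At the low end, Rpl29, a large-subunit protein, had 4.05, 5.06 and 5.87 TPM. Rps26, at the mRNA exit channel, had 6.24, 3.88 and 4.29 TPM, and Rpl36a, near the tRNA exit site, had 6.20, 3.50 and 4.35 TPM. Rps16 had 3.54, 4.38 and 3.58 TPM. Rpl39, a small protein of the peptide exit tunnel, had 3.55, 2.14 and 4.16 TPM, the lowest of the tested members in the alignment-based tables, at a level of −0.43 ± 0.20. None of these 5 was called above or below, and their levels lay between −0.43 and 0.07. The range of alignment-based means among tested members thus ran from 3.28 TPM in Rpl39 to 53.6 TPM in Rps9, although their proteins enter the ribosome in equal number. Alignment-free it ran from 6.4 TPM in Rps26 to 98.9 TPM in Rpl36, and Rpl39 averaged 20.5 TPM.

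The paralogs ending in l were the lowest of all by mean TPM. Rpl10l and Rpl39l, which act in male germ cells, and Rpl3l, the muscle paralog of Rpl3, were at 0 counts throughout the alignment-based tables; a count of 0 allows up to 3 counts, or 0.266, 0.12 and 0.152 counts per 1e+06 in replicates 1, 2 and 3. Their namesakes were detected throughout, with means of 50.6 TPM for Rpl10, 3.28 TPM for Rpl39 and 26.9 TPM for Rpl3. Rps27l, a p53 target, had 9.07, 2.85 and 7 TPM alignment-free and 1.03, 1.21 and 1.05 TPM alignment-based, from 3, 8 and 6 counts, under the minimum for testing. Rps27, its namesake, had 12.99, 15.57 and 19.55 TPM. Near-identical copies can share reads, so values of paralogs are uncertain.

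Of 43 tested large-subunit members 22 were called above, of 30 small-subunit members 12, and of the 3 stalk members 0. The median levels of the large-subunit and small-subunit members were 1.46 and 1.43. Rplp0, which anchors the stalk that recruits elongation factors, had 5.91, 9.02 and 9.78 TPM. Rplp1 had 4.93, 11.64 and 8.78 TPM, and its partner Rplp2 had 11.63, 13.36 and 15.97 TPM. All 3 were lowest in replicate 1. Rpsa, the small-subunit protein also known as the laminin receptor, had 10.82, 7.67 and 16.00 TPM and was called neither above nor below.

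The members varied between libraries about as much as other genes. The median SD of their level over the 3 libraries was 0.30, and that of all genes tested was 0.29. Set against the median gene of each library, their levels had an order. The level was lowest in replicate 1 in 51 of 76 members, against 37.9% of all genes tested. It was highest in replicate 2 in 52, against 37.4%. By TPM the order differed: replicate 1 was lowest in 35 members and replicate 2 in 33. Replicate 3 had the highest TPM in 35 members and replicate 2 in 17. RNA amount, depth and the share of the Gm26917 locus differ between the same libraries, and their part in this was not tested. The largest SDs were 0.85 for Rps15, 0.78 for Rplp1 and 0.73 for Rps29. Rps15 had 3.30, 7.41 and 10.06 TPM on 14, 53 and 57 counts. Rps29, a short zinc-binding protein, had 5.62, 10.64 and 5.19 TPM on 17, 46 and 18 counts. Across the 76 members the levels of replicates 2 and 3 correlated with r = 0.93, those of replicates 1 and 3 with r = 0.87 and those of replicates 1 and 2 with r = 0.83, which describes genes that share a library and a gene length.

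Other genes of the translation apparatus gave a scale for these levels. The lists were chosen by function. Of 30 initiation factors 17 were called above and 1 below (median level 1.54), and of 9 elongation and termination factors 5 were above and 0 below (median 1.45). Of 16 other mRNAs with a terminal oligopyrimidine tract 10 were above and 0 below, with a median of 2.02. Vim, an intermediate filament gene of that list, had 308.79, 295.46 and 322.29 TPM, and Pabpc1, the poly(A)-binding protein, had 245.45, 112.37 and 152.58 TPM. Both exceeded every ribosomal protein gene. Eif4g2 averaged 163 TPM and Eif4a2 140 TPM among initiation factors, and Eef1a1, which delivers aminoacyl-tRNA to the ribosome, averaged 128 ± 8.15 TPM (SD, n = 3). At the low ends, Eif3h averaged 4.53 TPM and Eef2k 4.42 TPM, neither called, and Eif4ebp1 averaged 0.753 TPM and was called below.

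Mitochondrial ribosomal proteins, encoded by other nuclear genes, had a median level of −0.80, with 2 of 68 above and 10 below. Mrpl52 and Mrpl24 were the 2 above, at 21.4 and 14.5 TPM, and Mrps16 was called below at 0.487 TPM. Of 31 ribosome biogenesis factors 7 were above and 1 below (median 0.48). Taf1d, a subunit of the RNA polymerase I factor SL1, averaged 126 TPM, and Ubtf, which activates ribosomal RNA genes, averaged 36.6 TPM. Rrp12 was the 1 below, at 0.807 TPM. Of 12 regulators of ribosomal protein mRNA 3 were above and 0 below (median 1.03). Larp1 led them at 69.8 ± 14.5 TPM (SD, n = 3), followed by Tial1 at 40.9 TPM, while Myc at 5.76 TPM was not called. Of 9 other ribosome-associated proteins 2 were above and 0 below: Rack1 at 35.4 TPM and Serbp1 at 29.8 TPM. Rps19bp1 was lowest there at 1.83 TPM and not called.

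A list of 10 mRNAs that are abundant in cytoplasm, such as Actb and Fth1, had all 10 above, with a median of 3.18. Fth1 averaged 239 TPM, Actb 225 TPM and Gapdh 16.1 TPM. The nuclear-retained noncoding RNAs Malat1 and Neat1 averaged 13030 and 943 TPM, and 6 of 8 tested RNAs of that kind were above and 1 below.

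**Figure D2:**
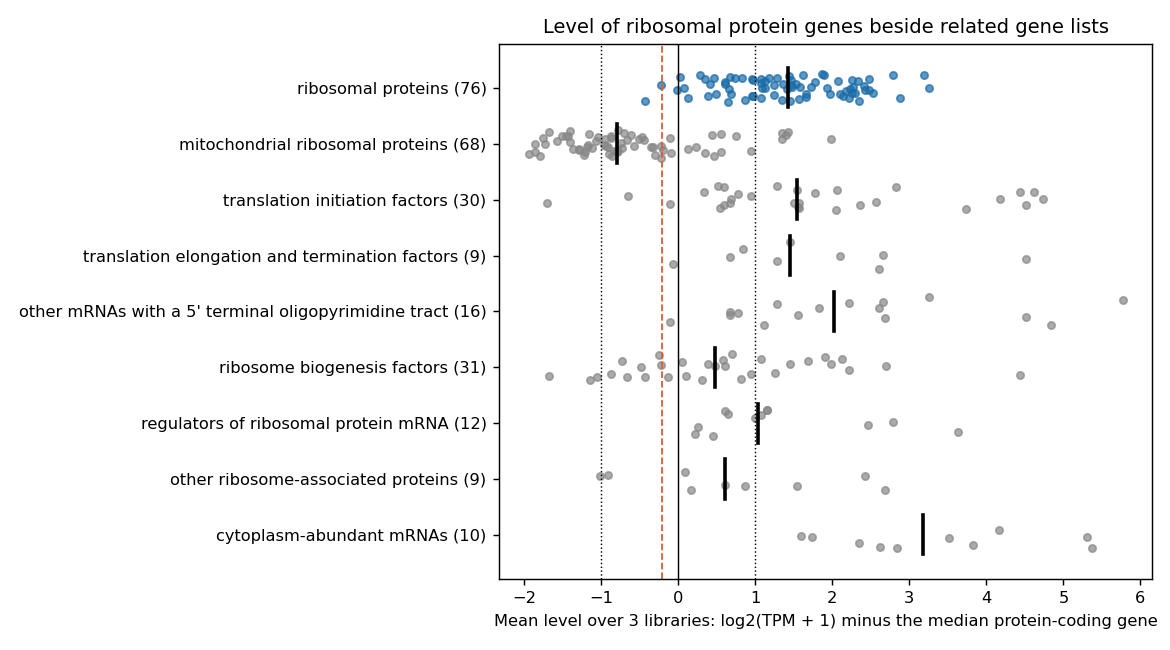
Mean level over 3 libraries, log2(TPM + 1) minus the median protein-coding gene, for each tested gene of a list (points), with the list's median as a black bar and the number of genes in brackets. Dotted lines mark the bounds of 1 log2 unit and the dashed line the median of all genes tested (−0.21). The 76 ribosomal protein genes have a median of 1.43 and the 68 mitochondrial ones a median of −0.80.

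In 36 of 61 members, retained-intron transcripts carried more TPM than protein-coding transcripts in every library, with no overlap between the 2 kinds. The opposite held in 12 members. Among all 6578 genes tested with both kinds of transcript, 25.6% and 24% did so. The median log2 ratio of retained-intron to protein-coding TPM, with 0.1 added to each, was 1.09 over the 61 members and 0.00 over all genes tested. By library it was 1.18, 0.98 and 0.86 in members and 0.42, −0.15 and −0.20 in all genes, highest in replicate 1 in both. The test against a 2-fold bound (limma's treat, adjusted over all genes) called retained-intron transcripts higher in 9 members, 14.8%, against 6.45% of all genes. It called them lower in 2 members, 3.28%, against 7.25% of all genes.

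Summed over members that have a retained-intron transcript, those transcripts held 65.6%, 60.3% and 59.9% of TPM in replicates 1, 2 and 3. In other genes with both kinds of transcript the shares were 55.5%, 43.4% and 43.4%. The members' shares lay above the other genes' shares in each library, and replicate 1 was highest in both. Alignment-free they were also above, at 56.1%, 55.8% and 56.7% against 48.5%, 42% and 42.6%, but replicate 1 was not the members' highest. Alignment-based, protein-coding transcripts held 29%, 32.8% and 34.5% of TPM in those members and 34.3%, 45.7% and 45.7% in the other genes. Alignment-free they held 33.8%, 33.8% and 34.1% against 32.6%, 41.1% and 39.3%, so members were not lower in replicate 1. By expected counts, retained-intron transcripts held 63.2%, 61.8% and 60.7% in members and 42%, 26.2% and 27.1% in the other genes. Genes annotated with a retained-intron transcript made up 77.5% of the members. Among genes with a protein-coding transcript, they made up 62.6% of those tested and 41.6% of all. Intronic reads can be counted for a gene only where an annotated transcript holds that intron. The median level was 1.44 in the 61 tested members with such a transcript and 1.28 in the 15 without.

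**Figure D3:**
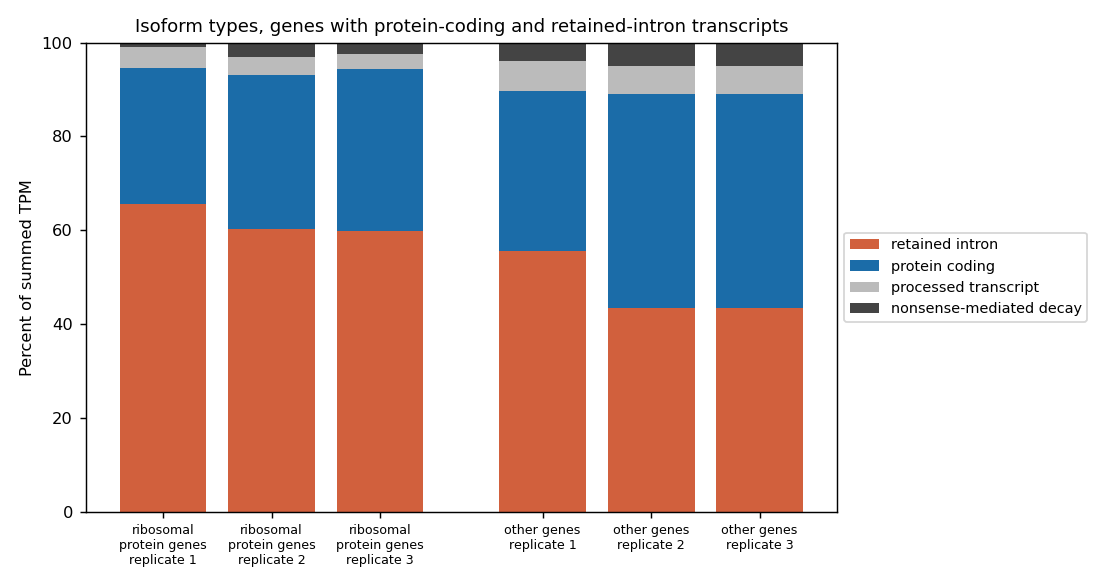
Percent of summed TPM by isoform type in each replicate, for ribosomal protein genes (left 3 bars) and all other genes (right 3 bars) that have protein-coding and retained-intron transcripts. Retained-intron transcripts take 59.9% to 65.6% in ribosomal protein genes and 43.4% to 55.5% in the other genes.

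Rps18 had the highest ratio, with 26.46, 23.24 and 25.50 TPM in retained-intron transcripts and 0.00, 0.98 and 0.00 TPM in protein-coding ones. The log2 ratio was 6.83 ± 2.07 (SD, n = 3; limma's treat, adjusted p = 0.00424). Its size depends on the 0.1 added, since the coding transcripts were listed at 0 in replicates 1 and 3, and the call was lost without replicate 1 (adjusted p = 0.0557 by limma's treat). Rpl10a had 20.01, 31.66 and 36.89 TPM in retained-intron transcripts and 1.94, 0.24 and 0.60 TPM in protein-coding ones (log2 ratio 5.19 ± 1.69, adjusted p = 0.00621). In Rps18 and Rpl10a the lowest retained-intron value was more than 10 times the highest coding value, so the groups did not overlap.

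Rpl3, which lies near the peptidyl transferase centre, had 22.72, 22.58 and 28.43 TPM in retained-intron transcripts and 0.15, 1.53 and 1.65 TPM in protein-coding ones. Its log2 ratio was 4.78 ± 1.51 (adjusted p = 0.0066 by limma's treat). Rpl3 autoregulates its own splicing in human cells through a transcript that keeps part of an intron. Rps26 had 5.99, 3.66 and 4.30 TPM in retained-intron transcripts and 0.26, 0.23 and 0.00 TPM in protein-coding ones. Rpl36a had 6.21, 2.85 and 3.47 against 0.00, 0.00 and 0.88 TPM. Rps26 and Rpl36a were also among the least abundant members, so these ratios rest on at most 53.8 and 36 retained-intron counts in a library. The call of Rpl36a was lost without replicate 1 (adjusted p = 0.148 by limma's treat) and with 1 TPM added in place of 0.1 (adjusted p = 0.113).

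Rpl5 had 46.81, 28.54 and 33.93 TPM in retained-intron transcripts and 4.12, 0.96 and 3.22 TPM in protein-coding ones, a log2 ratio of 3.86 ± 0.78 (adjusted p = 0.00541 by limma's treat). The other 3 called members were Rpl12 (log2 ratio 3.36), Rpl10 (2.11) and Rpl35a (3.30, named after its values were seen). In the alignment-free quantification 7 of these 9 members were called again. Rpl5 fell short there with a log2 ratio of 1.70 (adjusted p = 0.0721), and Rpl35a had −0.46.

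At the other end, Rplp0 had 1.58, 0.89 and 0.57 TPM in retained-intron transcripts and 4.32, 8.14 and 9.21 TPM in protein-coding ones (log2 ratio −2.75 ± 1.23, adjusted p = 0.0466 by limma's treat). Rpl31, at the exit of the peptide tunnel, had 1.28, 1.48 and 2.40 against 9.66, 8.55 and 9.58 TPM (−2.41 ± 0.44, adjusted p = 0.0281). By the alignment-based tables Rplp0 and Rpl31 were the 2 members called lower, and without replicate 2 or without replicate 3 none was. Rps15a (−1.81), Rpl15 (−1.65) and Rpl23a (−1.59) had the next lowest ratios and were not called. Alignment-free, the ratio of Rpl31 was −0.52 (adjusted p = 1 by limma's treat) and was not called, while that of Rplp0 was −2.48 (adjusted p = 0.0263) and was. Rps15a (−1.89, adjusted p = 0.0477) and Rpl23a (−2.40, adjusted p = 0.0104) were also called lower alignment-free.

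**Figure D4:**
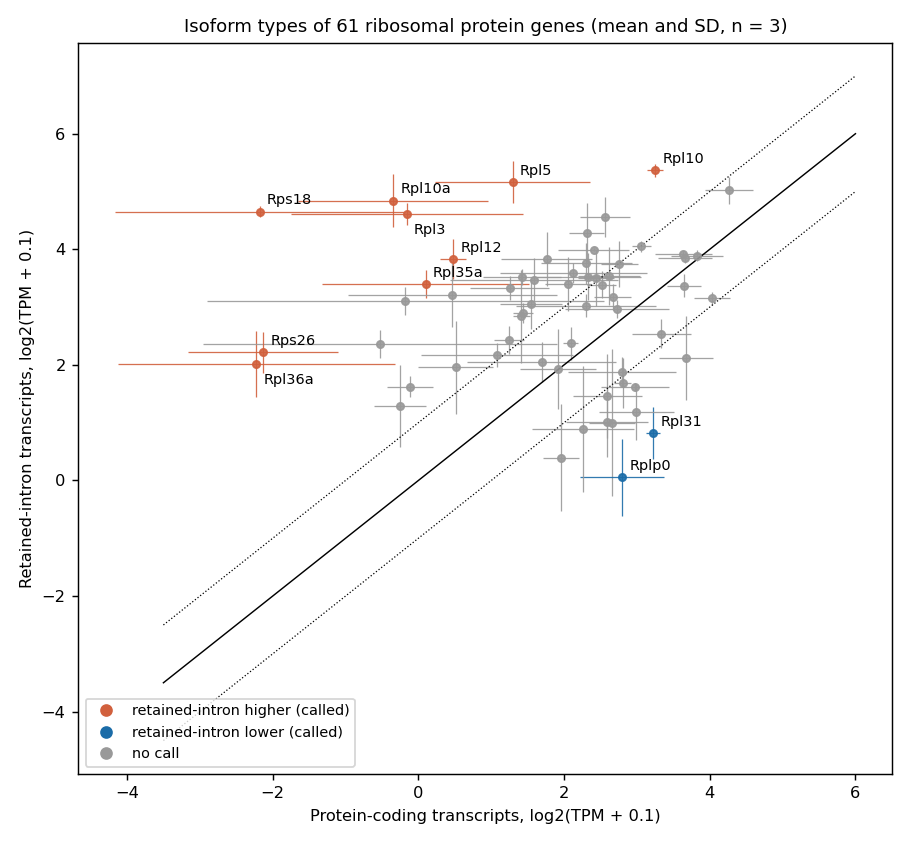
Retained-intron against protein-coding TPM, log2(TPM + 0.1), for 61 ribosomal protein genes; points and bars are the mean and SD of 3 libraries. The solid line marks equal TPM and dotted lines the 2-fold bounds. The 9 genes called higher lie above the upper bound and the 2 called lower, Rpl31 and Rplp0, below the lower one.

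Of the 9 members with retained-intron transcripts called higher, 6 overlap a gene on the other strand (Rps18, Rpl10a, Rpl3, Rpl5, Rpl12 and Rpl35a), as do 21 of all 80 members. Whether reads were counted by strand is not stated, so reads of the overlapping genes cannot be told apart without it. The median log2 ratio was 0.72 in the 18 tested members with such an overlap and 1.18 in the 43 without. On the same strand 6 members overlap a gene, and of these Rpl3 and Rps10 also overlap one on the other strand. Of the 172 retained-intron transcripts, 39 in 22 genes also overlap an annotated snoRNA, in whole or in part. They carried 12.6%, 10.4% and 11% of the members' TPM. Without them the retained-intron share of the summed TPM of all 80 members was 47.6%, 42.8% and 42.5% in replicates 1, 2 and 3, compared with 54.2%, 48.7% and 48.8% with them, a choice made after the data were seen.

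Processed transcripts, annotated isoforms without a coding frame, held 13.3%, 13.3% and 12.4% of the TPM of all members. In other genes with a protein-coding transcript they held 9.55%, 8.34% and 8.27%. Alignment-free the shares were 14.9%, 15.2% and 14.8% in members and 17.8%, 14.7% and 16% in the other genes, so the order changes with the quantifier. Rpl23 had 26.36, 30.67 and 37.56 TPM in processed transcripts, on average 77.1% of the gene's TPM. Rpl11 had 87.6%, Rpl7a 81.8% and Rps27a, a fusion of ubiquitin and a small-subunit protein, 81.6%; these 3 were chosen after their values were seen. Transcripts typed for nonsense-mediated decay held 0.817%, 2.35% and 2.01% of member TPM, and 3.51%, 4.3% and 4.33% in the other genes. The leading protein-coding transcript of a member held a median of 23.7% of the gene's TPM.

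A total of 28 members host 53 annotated snoRNAs in their introns, and 15 of the 28 were called above, with a median level of 1.76. Of the 48 tested members without a snoRNA 19 were called above, with a median of 1.26. The difference of the medians was 0.31, 0.28 and 0.51 in replicates 1, 2 and 3, but 0.005 on average in the alignment-free quantification. Rps3, a small-subunit protein that also acts in DNA repair, hosted the most strongly counted snoRNAs. Snord15b in its intron 5 had 3275, 2771 and 2785 counts, more than the 290.5, 604.8 and 397.5 counts of Rps3 itself. Snord15a in intron 1 had 685, 1238 and 930 counts. Both guide 2′-O-methylation of ribosomal RNA and are shown because they outnumber their host gene. Capitals mark the first TGATGA (box C) and the last CTGA (box D), from M21 on mm10, minus strand, chr7:99479563-99479707 for Snord15b and chr7:99482785-99482932 for Snord15a.
Snord15b: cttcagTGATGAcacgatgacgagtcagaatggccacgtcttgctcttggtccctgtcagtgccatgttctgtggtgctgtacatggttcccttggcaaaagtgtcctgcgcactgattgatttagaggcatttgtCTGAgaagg
Snord15a: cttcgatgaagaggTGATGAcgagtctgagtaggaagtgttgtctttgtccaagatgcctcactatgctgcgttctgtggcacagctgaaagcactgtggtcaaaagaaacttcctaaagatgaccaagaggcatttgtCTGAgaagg

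Rpsa was another host among the leading ones by alignment-based counts, with 498, 452 and 352 counts for Gm26448 in intron 3. Rpl10 was a further one, with 20.5, 39.8 and 19.8 counts for Snora70 in intron 4. The Gm26448 counts exceeded those of Rpsa (93.2, 171 and 177) in every library. The labels give a fragment size range of 250 to 400 without a unit, and these snoRNAs are shorter than that range if it is in bases. Snord21, 94 bases long in intron 5 of Rpl5, had 0 counts in every library alignment-based and 825, 608 and 892 counts alignment-free. Its effective length was 0 in the alignment-based tables, as was that of many other snoRNAs of the members, all with 0 counts there. One of these, Gm26202 of Rpl17, had 187, 124 and 313 counts alignment-free, above the 42.2, 77.1 and 50.2 of Snora70. The order of the hosts therefore holds for the alignment-based counts only.

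The alignment-free and alignment-based quantifications of the same libraries gave the members different totals. Alignment-free, the members summed to 2351, 1038 and 1733 TPM in replicates 1, 2 and 3, against 1263, 1224 and 1354 TPM alignment-based. The median difference in log2(TPM + 1), alignment-free minus alignment-based, was 0.79, −0.23 and 0.38 in members and 0.69, −0.03 and 0.31 in all genes, positive in replicates 1 and 3 and negative in replicate 2 in both. Only 2 of 76 members were called more than 2-fold higher alignment-free (2.63%, against 4.24% of all genes) and 0 more than 2-fold lower (against 0.499%), by limma's treat.

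Rpl39 had 35.92, 6.76 and 18.84 TPM alignment-free and 3.55, 2.14 and 4.16 TPM alignment-based, a log2 difference of 2.09 ± 0.87 (SD, n = 3; limma's treat, adjusted p = 0.00111). Rpl36, a large-subunit protein, had 137.71, 64.30 and 94.56 TPM alignment-free and 27.23, 28.03 and 23.18 TPM alignment-based, a log2 difference of 1.82 ± 0.58 (adjusted p = 0.0324). For both genes the alignment-free values lay above the alignment-based values without overlap. The calls did not hold without replicate 1 or without replicate 3, when 0 members were called.

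Rpl24 (1.37), Rps7 (1.35), Rpl36a (1.16) and Rps27 (1.01) had the next largest positive log2 differences and were not called. The largest negative ones were −0.89 in Rps12, −0.61 in Rpl12, −0.55 in Rpl9, −0.54 in Rpl10, −0.38 in Rpl10a and −0.36 in Rps2, none of them called. In the 5 members with an effective length under 200 bases the median difference was 0.78, and in the other 71 it was 0.33. Rps12 thus averaged 15.6 TPM alignment-free and 28 TPM alignment-based, which moves it in the order of the members.

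**Figure D5:**
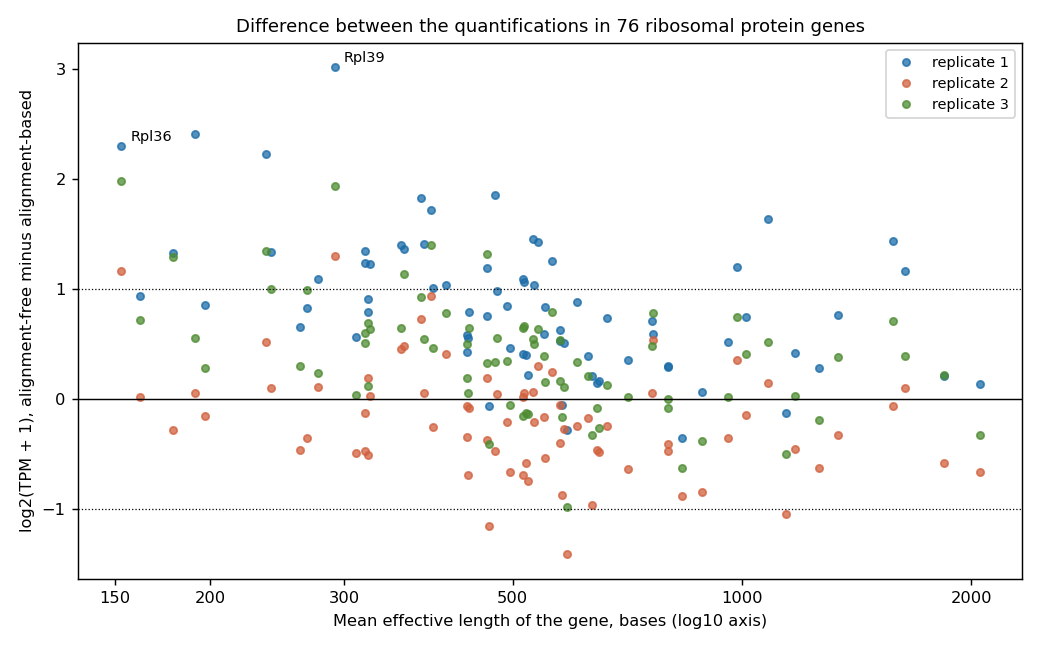
Difference in log2(TPM + 1), alignment-free minus alignment-based, against the mean effective length in bases (log10 axis) for 76 ribosomal protein genes, with a point for each replicate. Dotted lines mark the bounds of 1 log2 unit. Replicate 2 lies lowest in most genes (median −0.23), and Rpl39 and Rpl36 are labelled at replicate 1.

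Pseudogenes with a member's symbol followed by -ps were a minor part of the counts. Any copies under other symbols were not included, so the shares below cover only those named in this way. The annotation holds 291 pseudogenes named after 59 of the members, of which 201 had no count in any library and 16 reached a mean count of 10. Their share of the counts of members and pseudogenes together was 6.06%, 3.69% and 3.81% in replicates 1, 2 and 3. By alignment-free counts it was 8.14%, 5.55% and 5.33%. By TPM it was 17.1%, 12.4% and 11% alignment-based and 17.3%, 14% and 12.8% alignment-free. Rpl36-ps2, the most strongly counted, had 117, 165 and 127 counts, against 67.2, 103 and 73 counts of Rpl36. Rps2-ps9 had 153, 67 and 83 counts. Reads shared by a gene and its copies make both values uncertain. The median posterior SD of a member's count was 0.622% of that count, and the highest was 8.11% in Rpl24. Over the 10520 protein-coding genes tested the median was 0%. These SDs are those of gene counts and do not cover the split among isoforms.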

How the data were processed

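Total RNA-seq of chromatin-fraction RNA from 3 biological replicates of 1 group was used, grouped by the labels. The deposited gene and transcript tables give expected counts and TPM from an alignment to the mm10 transcriptome with GENCODE M21, and a deposited score, the posterior standard deviation of each count; their columns are those of RSEM, per the file headers. A second deposited transcript table, made without an alignment, has estimated counts and TPM with the columns of kallisto, per the file headers, and was summed to genes. For versions, strand settings and filters, nothing is given in the sources used here. Deposited effective lengths were used to describe genes. Of 81881 entries, 26345 that are no annotated gene (tRNA, spike-in and phiX entries, 0.21% to 1.51% of counts) were left out of all tests.

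Tests used limma 3.58.1 (treat, R 4.3.3), intercept only, on genes whose expected counts averaged 10 or more, against a bound of 1 log2 unit, with Benjamini-Hochberg adjustment over all genes at 0.05. Values were log2(TPM + 1), or log2(TPM + 0.1) for isoforms. The isoform test covered 6578 genes and the quantification test 13427. Scripts were tested on simulated data. With 1 group no comparison of conditions was made. The members and gene lists were chosen with earlier results of these data known.

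Alternatives were other pseudocounts, count minima, TPM columns, references, the alignment-free tables, each replicate left out, and edgeR 4.0.16 and DESeq2 1.42.0 on expected counts rounded to whole numbers. The planned edgeR glmTreat could not be fitted with an intercept alone, so its quasi-likelihood test was run against the nearer bound. Genes named in the text are the 10 highest and 10 lowest in TPM, the 6 largest quantification differences each way, the 6 highest and 6 lowest isoform ratios, the 3 largest SDs, the paralogs ending in l with their namesakes, the 4 leading snoRNA hosts, the stalk genes and Rpsa, and in each list the 2 highest and the lowest. Of these, 2 members are not reported here by name. Depth was 11277198 to 24965749 counts; a count of 0 allows 3 counts, which covers counting error only.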

Additional observations from a re-analysis of the deposited data

How the results depend on the processing

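No pairing of conditions was possible because the series holds 1 group. The quantification difference and the isoform ratio were each taken within a library. Of 405 values of single genes under alternatives, 348 kept their direction and their side of the threshold, 28 lost a call, 13 gained one and 16 changed sign. All sign changes were in members that were called neither way in the main test, with mean levels there from −0.43 in Rpl39 to 0.68 in Rplp0. Rps26 had levels of −0.116 with the posterior mean TPM and −0.261 alignment-free. Rpl36a had levels of 0.928 with no minimum count, 0.00416 with the posterior mean TPM, 0.593 alignment-free and 0.184 against the median of all genes. Rps16 and Rpl39 had 0.717 and 0.516 with no minimum count, and 0.117 and 1.11 alignment-free. Rplp0 had −0.387 with a minimum of 100. Leaving out 1 replicate gave −0.0747 to 0.291 for Rpl29, −0.0541 to 0.105 for Rps26 and −0.104 to 0.0424 for Rpl36a.

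The 34 members called above became 65 with no minimum count and 4 with a minimum of 100. The 2 members called higher alignment-free became 1 with a pseudocount of 0.1, 0 with no minimum, 0 with a minimum of 100 and 0 with each table centred on its median gene, and 0 to 3 with 1 replicate left out. The 9 members with higher retained-intron TPM became 14 with the posterior mean TPM, 14 alignment-free and 14 by expected counts. The 2 with lower became 1 with a pseudocount of 1, 6 alignment-free and 6 by expected counts, and 0 to 1 with 1 replicate left out. Shares of all genes called under these alternatives are not given here, so the counts describe the members only.

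Alignment-free, the large-minus-small difference of median levels was 0.321 (0.0596 alignment-based), the difference for snoRNA hosts was 0.00524 (0.365), the retained-intron share was 43.7% (50.6%), the pseudogene share of counts was 6.34% (4.52%) and the leading coding transcript's median share was 21% (23.7%). Alignment-based, the retained-intron share was 54.5% by expected counts and 44.3% without transcripts that overlap a snoRNA, a setting chosen after seeing the data. The pseudogene share was 13.5% by alignment-based TPM. The cause of these moves was not tested. Of the 76 tested members, 54 had a mean count of 100 or more; the others rest on less depth.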
